A study of Mus musculus with 4 samples.

Results

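Deposited class 2 is the largest of the adult classes in a single-nucleus ATAC-seq study of the mouse mammary gland. Its members are the nuclei that carry class number 2 in the authors' deposited table of motif scores, 1522 of the 7846 nuclei in that table. The study compared mammary epithelium of CD1 mice, an outbred stock labelled wild type, at embryonic day 18 and in adults at 8 weeks, with 2 biological replicates of each stage. Cells had been sorted by flow cytometry as EpCAM-positive and lineage-negative, a gate that keeps epithelium and removes blood and vessel cells. In the assay the Tn5 transposase cuts open chromatin and inserts barcodes, so that reads mark accessible DNA in each nucleus. Class 2 held 805 of 2465 listed nuclei of adult replicate 1, a share of 32.7% (exact binomial 95% interval 30.8% to 34.5%), and 714 of 2804 of adult replicate 2, a share of 25.5% (23.9% to 27.1%). The intervals cover counting error only, and not the spread between libraries. The mean adult share was 29.1% ± 5.09 (SD, n = 2 libraries). In the fetal libraries 1 of 882 and 2 of 1695 nuclei carried the number. The labels do not say whether an adult library came from 1 mouse or from pooled mice.

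The working name given to the class is mature luminal. Mammary ducts consist of an inner luminal and an outer basal, contractile layer. Luminal cells divide broadly into hormone-sensing mature cells, which carry oestrogen and progesterone receptors, and progenitor or secretory cells, which turn to milk production. Hormone-sensing cells answer ovarian hormones and signal to their neighbours through secreted factors such as amphiregulin, the product of Areg. FOXA1 is a pioneer factor, able to bind closed chromatin and open it for the oestrogen receptor. ATAC-seq measures accessibility and not expression or protein.

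The authors made the classes from accessibility of these same nuclei, so each comparison of class 2 with other nuclei describes what the class is and carries no test. Values are given for each adult library, and a feature was called higher or lower when class 2 differed from all other nuclei of the same library by at least 2-fold in both libraries. Class 2 nuclei had a median of 4423 reads in adult replicate 1 and 5667 in adult replicate 2, beside 4420 and 5397 in the other nuclei. Their reads lay in promoter regions at a median share of 25.7% and 23.2%, beside 25.0% and 22.9%. The 4 libraries held 6028168 to 19304830 reads of listed nuclei, and no barcode was shared between libraries. Depth and promoter share of class 2 were thus close to those of the nuclei it was compared with.

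Start-site sequences of 6 genes are shown first, as examples of marker genes, of called windows and of genes closed in class 2. The bearing of these windows on the motif scores reported next was not tested. Each run is the RefSeq window of GRCm38.p6 from 250 bases before to 50 bases after a transcription start, in the direction of the gene, with matches to short motifs in capitals. The motifs searched on both strands were TGTTTAC for forkhead factors, TGANTCA for AP-1, AGATAA for factors of the GATA family, TGTGGTT for RUNX, GGAATG for TEAD, AGGAAG for ETS factors, and the oestrogen response element. No matches overlapped in the windows printed. Foxa1 and Areg are marker genes of the class. Gm52179 is the called window with the largest ratio among those with a forkhead match, and Pacsin2, which encodes a membrane-shaping protein, the largest among the others with an AP-1 match; both were picked after their values were seen. Kit and Lcn2 were closed in class 2.
Foxa1, chr12:57546062-57546361, minus strand: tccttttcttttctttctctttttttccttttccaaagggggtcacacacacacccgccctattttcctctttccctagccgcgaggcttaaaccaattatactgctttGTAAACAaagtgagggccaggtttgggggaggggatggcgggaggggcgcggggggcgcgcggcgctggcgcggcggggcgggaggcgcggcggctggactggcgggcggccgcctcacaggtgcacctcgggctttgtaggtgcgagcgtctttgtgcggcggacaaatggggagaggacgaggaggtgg
Areg, chr5:91139349-91139648, plus strand: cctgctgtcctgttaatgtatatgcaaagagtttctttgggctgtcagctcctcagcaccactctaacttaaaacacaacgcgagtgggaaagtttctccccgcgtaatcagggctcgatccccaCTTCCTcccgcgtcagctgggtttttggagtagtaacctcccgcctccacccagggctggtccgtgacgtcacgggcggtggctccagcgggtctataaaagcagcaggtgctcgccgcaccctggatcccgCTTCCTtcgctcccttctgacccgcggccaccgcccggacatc
Gm52179, chr15:81260316-81260615, plus strand: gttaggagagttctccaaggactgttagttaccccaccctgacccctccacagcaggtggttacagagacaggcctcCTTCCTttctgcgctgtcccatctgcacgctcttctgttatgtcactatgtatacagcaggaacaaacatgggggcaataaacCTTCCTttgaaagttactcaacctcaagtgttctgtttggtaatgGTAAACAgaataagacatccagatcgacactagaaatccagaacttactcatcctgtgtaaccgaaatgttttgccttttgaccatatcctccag
Pacsin2, chr15:83447831-83448130, minus strand: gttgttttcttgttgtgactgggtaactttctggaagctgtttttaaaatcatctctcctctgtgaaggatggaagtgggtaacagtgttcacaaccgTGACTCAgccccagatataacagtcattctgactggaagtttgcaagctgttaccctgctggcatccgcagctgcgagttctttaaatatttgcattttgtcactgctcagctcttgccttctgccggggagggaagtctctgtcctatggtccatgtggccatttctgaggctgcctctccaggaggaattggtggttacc
Kit, chr5:75574737-75575036, plus strand: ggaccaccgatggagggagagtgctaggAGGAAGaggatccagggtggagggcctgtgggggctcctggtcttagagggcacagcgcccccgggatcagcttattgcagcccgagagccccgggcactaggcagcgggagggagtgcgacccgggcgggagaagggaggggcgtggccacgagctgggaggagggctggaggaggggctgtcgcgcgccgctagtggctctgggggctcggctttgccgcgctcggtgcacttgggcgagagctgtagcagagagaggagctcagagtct
Lcn2, chr2:32387690-32387989, minus strand: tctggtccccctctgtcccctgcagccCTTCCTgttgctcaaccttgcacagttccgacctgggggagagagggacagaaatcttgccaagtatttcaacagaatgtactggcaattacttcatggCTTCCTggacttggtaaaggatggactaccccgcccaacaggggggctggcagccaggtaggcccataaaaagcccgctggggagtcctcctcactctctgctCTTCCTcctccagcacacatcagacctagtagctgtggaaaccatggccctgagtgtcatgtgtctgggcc

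The Foxa1 window holds a forkhead match, GTAAACA, at position 110 counted from 1 at the left end. It had 55 and 75 class 2 reads and log2 ratios of 0.66 and 1.04, so it passed the fold in 1 library only. The Areg window, with a pair of ETS matches, had 62 and 59 class 2 reads and log2 ratios of 0.94 and 0.60. None of the windows of the 5 marker genes Areg, Foxa1, Esr1, Pgr and Krt8 passed the fold in both libraries. The Gm52179 window, with its forkhead match at position 206, had 83 and 103 class 2 reads against 25 and 44 in all other nuclei, and log2 ratios of 2.13 and 2.17. The Pacsin2 window, with an AP-1 match at position 99, had 103 and 83 against 31 and 38, and log2 ratios of 2.23 and 2.01. At the Kit window 3 and 1 class 2 reads stood against 111 and 122, and at the Lcn2 window 1 and 0 against 182 and 192. Among the receptor genes, the Esr1 windows had mean log2 ratios of 0.47 and 0.43 and the Pgr window 0.42. Gm52179 and Pacsin2 were picked by their ratios, so setting them above these windows says nothing more.

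Of 15128 windows with enough reads, 78 were called higher in class 2 (0.516%) and 317 lower (2.1%). The AP-1 letters stood in 35.9% of the higher windows, 11.4% of the lower ones, 6.11% of all windows tested and 7.85% of all 32619 windows. The forkhead letters stood in 12.8%, 1.89%, 2.56% and 3.67% of the same sets. RUNX letters stood in 10.3% of the higher and 3.49% of tested windows. GATA letters were in 7.69% of the higher windows and 5.50% of those tested, TEAD letters in 11.5% and 12.2%, and ETS letters in 43.6% and 32.0%. In the lower windows RUNX, GATA, TEAD and ETS letters stood in 6.31%, 4.42%, 17.98% and 44.2%, so ETS letters were as frequent there as in the higher ones. The full oestrogen response element occurred in 1 of the 78 higher windows, none of the 317 lower ones and 23 of all windows. A match is a run of letters and not a site of binding.

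Motif scores, from chromVAR, state how much more or less accessible the regions holding a motif were in a nucleus than background regions. Forkhead scores were the most raised in class 2 against all other nuclei, although class 11 had a higher Foxa1 mean. The mean Foxa1 motif score was 3.70 in class 2 of adult replicate 1 and 4.20 in adult replicate 2, against -0.40 and -0.35 in all other nuclei. The differences of 4.09 and 4.55 had a mean of 4.32 ± 0.33 (SD, n = 2 libraries) and were the largest of the 388 distinct motif columns. Of the class 2 nuclei, 99.9% and 99.7% had a Foxa1 score above 0, compared with 19.9% and 19.3% in class 7, an adult class with high Kit accessibility. Across the distinct columns, 26 were higher in class 2 by at least 1 in both libraries (6.7%) and 10 were lower (2.58%). In the forkhead family 15 of 16 columns were higher, with a median difference of 1.89 beside 0.02 over all columns. Foxc1 followed at 3.00 and 3.42, the column shared by Foxc2 and Foxs1 at 2.95 and 3.36, Foxa3 at 2.84 and 3.22, and Foxp1 at 2.30 and 2.57. Forkhead proteins bind closely related letters, so these columns are not independent and do not name the factor.

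The AP-1 family, dimers of FOS and JUN proteins that respond to growth factors and stress, was the other raised family. It had 10 of 18 columns higher, with a median difference of 1.37. Smarcc1, a chromatin-remodelling subunit listed here with the AP-1 family, differed by 2.18 and 2.59 and Fos by 2.15 and 2.61. The mean Fos score of class 2 was 2.43 and 3.05, and 93.7% and 94.5% of its nuclei were above 0. Class 11 had higher means, 2.55 and 3.30. Mesp1, at 1.06 and 1.18, was the single higher column outside both families, and is named here because of that count.

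**Figure D1:**
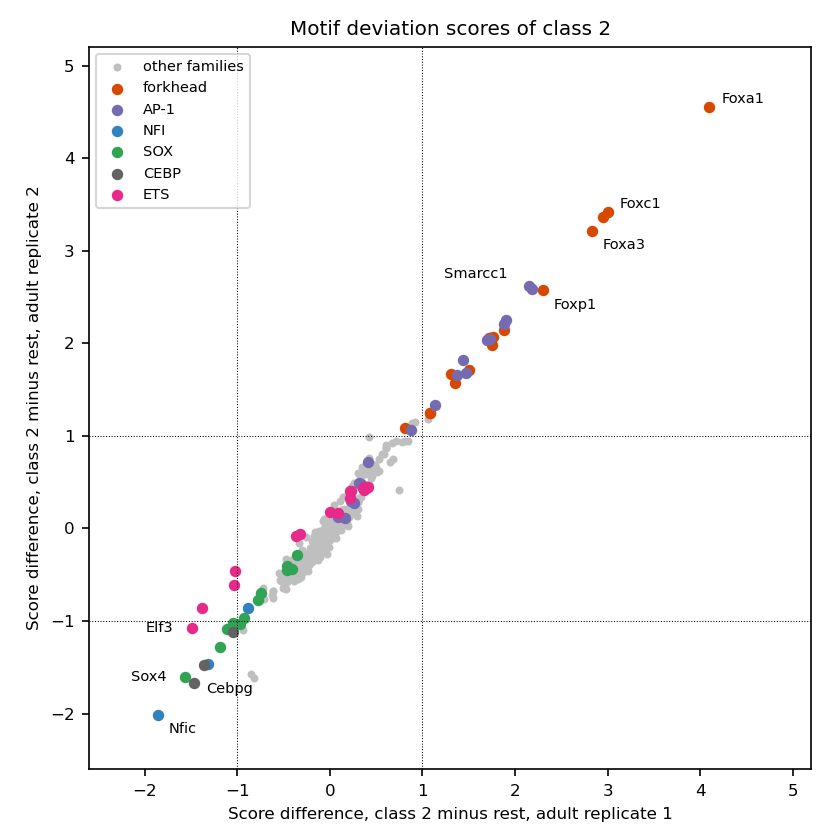
Each point is 1 of 388 distinct motif columns, placed by the mean deviation score of class 2 minus that of the other nuclei in adult replicate 1 (x) and adult replicate 2 (y); dotted lines mark differences of -1 and 1. Forkhead and AP-1 columns fill the upper right, with Foxa1 at 4.09 and 4.55, and Nfic lies lowest at -1.85 and -2.01.

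Steroid receptor motifs were raised less or not at all. The Esr1 motif score of class 2 was 0.68 and 0.91, which was 0.43 and 0.76 above the other nuclei and below the limit of 1. The Pgr motif score was -0.09 and -0.06, or 0.30 and 0.23 below them. None of the 5 distinct steroid receptor columns was called, and their median difference was -0.01. GATA columns had a median difference of 0.05, grainyhead 0.70 and the 6 STAT columns -0.42. All 6 STAT columns were below 0 in both libraries, Stat5a by 0.36 and 0.29. The class thus combined high forkhead and AP-1 scores with no called receptor motif. Its Esr1 score was still above those of class 1 (-0.23 and -0.25), class 8 (-0.53 and -0.65), class 3 (0.23 and 0.23) and class 7 (0.30 and 0.25). Class 6 (0.90 and 0.83), class 10 (0.64 and 0.94) and class 11 (0.68 and 0.83), also among the comparison nuclei, lay near it.

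Scores lower in class 2 belonged to the NFI, SOX and CEBP families and to 1 ETS column. Nfic, a nuclear factor I protein, was lowest at -1.85 and -2.01, with class 2 means of -1.75 and -1.95. Sox4 followed at -1.56 and -1.60, Cebpg at -1.47 and -1.67, the column of Cebpb and Cebpd at -1.36 and -1.48, that of Nfia and Nfib at -1.32 and -1.47, and Elf3, an epithelial ETS factor, at -1.49 and -1.07. All 3 CEBP columns, 2 of 3 NFI columns, 4 of 12 SOX columns and 1 of 18 ETS columns were called lower. The ETS family had a median difference of 0.29, with 11 columns above 0 in both libraries and 6 below. The Trp63 motif, named for a basal regulator, differed by -0.85 and -1.57, so it passed in 1 library only. Class 11 was low in the same scores, with Nfic means of -1.59 and -1.85 and Sox4 means of -1.47 and -1.58, beside -1.61 and -1.75 for Sox4 in class 2.

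**Figure D2:**
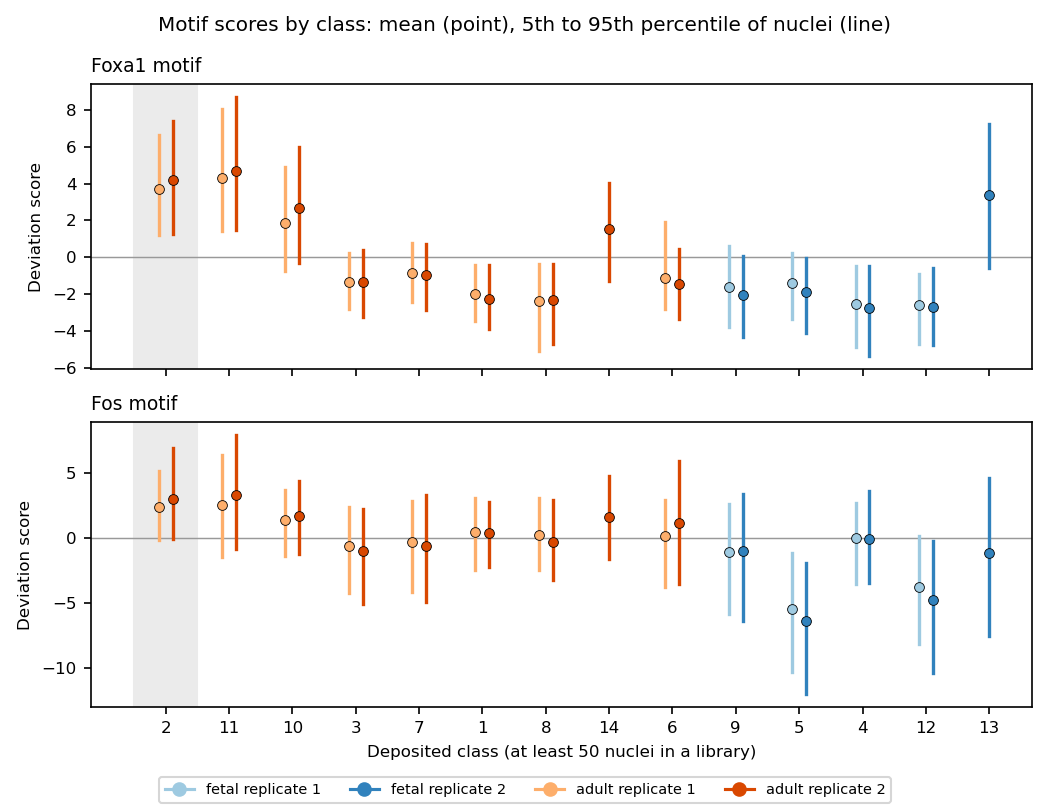
Foxa1 motif scores (top) and Fos motif scores (bottom) by deposited class, with the mean of each library as a point and the 5th to 95th percentile of its nuclei as a line; class 2 is shaded. The Foxa1 means of 3.70 and 4.20 in class 2 lie next to those of class 11, at 4.30 and 4.66, and above those of class 10, at 1.88 and 2.68.

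Across classes, class 2 did not have the highest Foxa1 score. Class 11, a smaller adult class, had means of 4.30 and 4.66, which were 0.60 and 0.46 above class 2. Class 10 had 1.88 and 2.68, class 14, with 59 nuclei of adult replicate 2, had 1.52, and fetal class 13 had 3.37. The lines of classes 2 and 11 overlap over most of their length, with 5th percentiles of 1.20 and 1.28 in class 2 and 1.44 and 1.46 in class 11. Class 11 nuclei were deeper, at medians of 5490 and 7676 reads.

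Within class 2 the scores moved with depth. When the nuclei of each library were placed in 3 groups by depth, the mean Foxa1 score was 2.75, 3.45 and 4.89 from the shallow to the deep group in adult replicate 1 and 2.99, 4.06 and 5.56 in adult replicate 2. Median depths of these groups were 2626, 4423 and 8462 reads and 2881, 5667 and 10819 reads. Nfic scores moved the other way, from -1.27 to -2.31 and from -1.44 to -2.55, so scores moved away from 0 with depth in either direction. Pearson's r between the Foxa1 score and log reads was 0.58 over 805 nuclei and 0.63 over 714, given as a description of nuclei that share a library. The Foxa1 score had r of 0.34 and 0.40 with Fos, 0.22 and 0.18 with Esr1, and 0.03 and 0.01 with Pgr. The part of depth in these correlations and in the gap to class 11 was not tested.

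Gene-span accessibility was counted as reads over each RefSeq gene with 2000 bases on either side, scaled as counts per-million reads of the nuclei (CPM). Among the marker genes, Pgr, Areg and Foxa1 were higher in class 2, and Esr1 and Krt8 did not pass the fold. Pgr, the progesterone receptor, had 193 and 207 CPM in class 2 and 64.2 and 75.7 in the other nuclei of adult replicates 1 and 2, log2 ratios of 1.56 and 1.43. Areg, an ErbB ligand, had 83.1 and 82.8 CPM against 27.6 and 29.2, ratios of 1.52 and 1.45. Both class 2 values lay far above both values of the rest for each gene, and the libraries of class 2 differed little.

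Foxa1 had 171 and 164 CPM against 75.9 and 74.8, log2 ratios of 1.15 and 1.11. Prlr, the prolactin receptor, had 225 and 228 CPM against 108 and 109, a ratio of 1.05 in each library. Greb1, a cofactor of the oestrogen receptor and one of its best known targets, had 94.1 and 103 CPM against 33.4 and 46.1, ratios of 1.44 and 1.13. These 3 genes passed the fold, but nearer to the limit. Class 6 had a higher Greb1 level than class 2, 107 against 98.5 CPM on average, and Greb1 no longer passed when the other classes were weighted equally. Among nuclei at or above the median depth of their library Foxa1 and Greb1 no longer passed, and with the span alone Foxa1 did not.

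Esr1 and Krt8 did not pass. Esr1, the oestrogen receptor, had 216 and 243 CPM in class 2 against 118 and 143, log2 ratios of 0.86 and 0.75; the groups did not overlap, but the fold stayed under 2. With class 11 left out of the comparison nuclei Esr1 passed as well. Krt8, a keratin of all luminal cells, had 147 and 128 CPM against 140 and 96.6, ratios of 0.06 and 0.40, and the groups overlapped.

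Over all classes with at least 50 nuclei in a library, class 2 ranked first for Areg, at 82.9 CPM on average, with class 11 at 76.7, class 10 at 50.3, class 14 at 30.7 and every other class at 22.9 or less. It ranked first for Esr1, at 229 CPM, followed by class 11 at 216 and class 14 at 196, and for Pgr, at 200.1 CPM, followed by class 11 at 166 and class 14 at 157. The libraries of classes 2 and 11 overlapped for Esr1, with 196 and 236 CPM in class 11. They did not overlap for Areg, with 72.3 and 81.1 CPM in class 11, or for Pgr, with 174 and 159, though the Areg gap to adult replicate 2 of class 11 was small. For Foxa1 the fetal class 13, seen in 1 library, stood at 172 CPM beside 168 ± 5.00 (SD, n = 2) in class 2. For Krt8 class 2 had rank 4 at 137 CPM, below class 7 at 189, class 3 at 144 and class 10 at 143. Class 2 was thus first for 3 of the 5 markers and second for Foxa1, while Krt8 was as high in classes 3, 7 and 10.

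**Figure D3:**
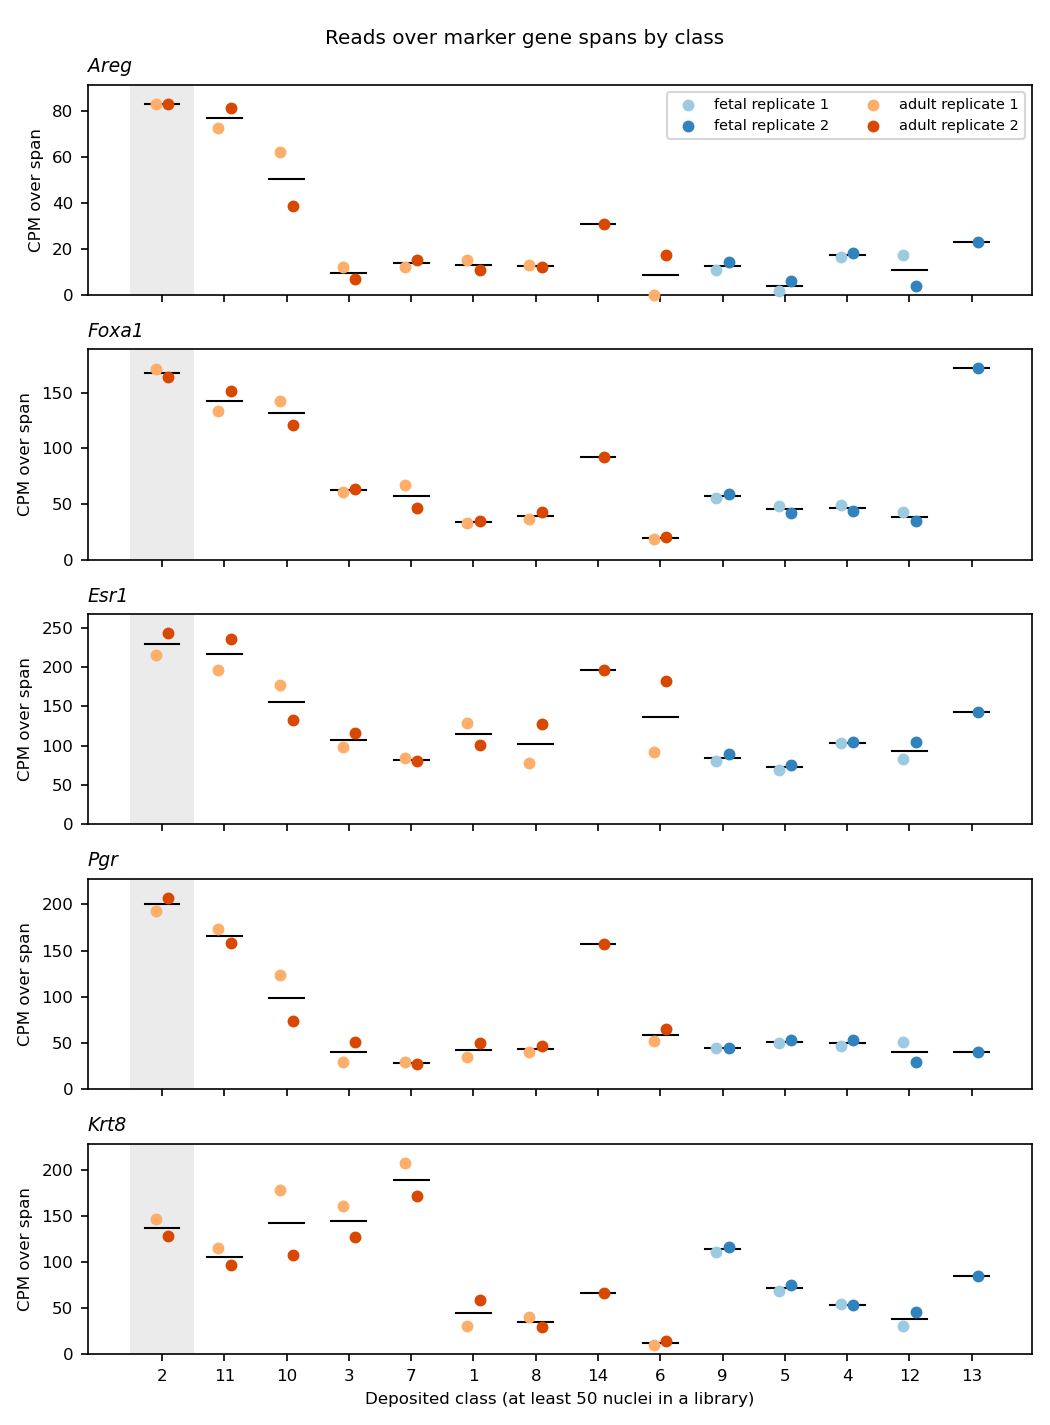
Reads over the spans of Areg, Foxa1, Esr1, Pgr and Krt8 as CPM, for each deposited class and library, with the mean as a bar; class 2 is shaded. Class 2 is first for Areg at 82.9 CPM, Esr1 at 229 and Pgr at 200.1, and has rank 4 for Krt8 at 137.

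Reads in single nuclei are sparse, so shares of nuclei with a read were taken after thinning every nucleus to 2000 reads. A read over Pgr was present in 22.2% and 26.1% of class 2 nuclei, and in 35.8% and 42.0% before thinning, compared with 4.00% and 3.68% in class 7. For Areg the thinned shares were 11.2% and 13.4% in class 2, 17.1% and 20.7% before thinning, and 1.48% and 2.16% in class 7. For Kit they were 0.497% and 0.560% in class 2 and 19.7% and 19.3% in class 7. Class 11 had thinned shares of 25.4% and 21.9% for Pgr and 11.7% and 8.61% for Areg, so it exceeded class 2 in adult replicate 1. Class 7 had median depths of 3866 and 4898 reads. Summed over the 13 hormone-sensing genes, class 2 had a mean of 2.59 and 2.63 thinned reads per nucleus class 11 2.36 and 2.24, and class 7 0.953 and 0.905, and 17.8% and 14.4% of class 2 nuclei had none.

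Of 18082 genes with enough reads, 166 spans were higher in class 2 (0.918%) and 507 lower (2.8%), and the median log2 ratio over all genes was 0.04. In the hormone-sensing list 5 of 13 genes were higher, Pgr, Prlr, Foxa1, Areg and Greb1, and none was lower, with a median of 0.81. Cited1, a transcriptional coregulator of oestrogen responses, had ratios of 0.91 and 0.90, and Wnt4, a progesterone-induced signal, 0.52 and 0.68. Tnfsf11, which encodes RANKL, a signal sent to progenitor cells under progesterone, had 12.2 and 15.5 CPM against 12.8 and 14.01, ratios of -0.06 and 0.13. Areg and Tnfsf11, both secreted signals of this lineage, therefore differed widely in accessibility.

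In the paracrine list of 8 genes, Areg was higher and 2 were lower, Egfr and Tnfrsf11a, with a median of 0.25. Egfr, which binds amphiregulin, had 46.9 and 76.4 CPM in class 2 against 219 and 228, log2 ratios of -2.18 and -1.55, and class 2 had the lowest mean Egfr level of all classes. Class 11 was next, with 75.4 and 91.6 CPM, and its libraries overlapped with those of class 2. Tnfrsf11a, the receptor RANK, had 20.8 and 17.5 CPM against 64.4 and 49.7, ratios of -1.54 and -1.40. In the ErbB list of 10 genes Areg was higher and Egfr and Nrg1, a ligand of ERBB3 and ERBB4, were lower, Nrg1 by ratios of -1.29 and -1.56. Erbb2 stood at 0.52 and 0.58 and Erbb3 at 0.37 and 0.52, and the list's median was 0.04.

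In the prolactin pathway 1 of 9 genes was higher, Prlr, and none lower, with a median of 0.44. Stat5a, the transcription factor at the end of the pathway, had 109 and 102 CPM against 63.1 and 50.6, ratios of 0.78 and 0.98, and Jak2, its kinase, had 0.58 and 0.74. Among 16 partners of steroid receptors 1, Greb1, was higher, with a median of 0.35. Tbx3, a luminal T-box factor, stood at 0.92 and 0.83 and Gata3, needed for luminal fate, at 0.17 and 0.26. Among 22 nuclear receptors 1, Pgr, was higher, with a median of 0.02, and Esrrb, an orphan receptor, stood at 0.83 and 1.11. With class 11 left out of the comparison nuclei Esrrb and Tox3 passed as higher and Tfap2c as lower.

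The genes of the forkhead and AP-1 families are given beside their raised motif scores. Of 9 forkhead genes 1, Foxa1, was higher and 1, Foxi1, was lower, with a median of -0.15. Foxi1 was no longer called with 5 CPM added, with the other classes weighted equally, among the deeper nuclei or with the span alone. Foxc1 and Foxa3, whose motif columns were among the highest, had ratios of -0.76 and -0.25 and of -0.21 and -0.08. Of 12 AP-1 genes none was called, with a median of 0.10. Fos had ratios of 0.49 and 0.67, Jun 0.47 and 0.55, and Bach2, a repressor that shares the motif, -1.07 and -0.93. Bach2 was called lower with class 11 left out of the comparison nuclei. Of 9 Notch genes 1 was lower, the ligand Dll1, at -1.63 and -1.47.

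In the luminal progenitor and milk list, 6 of 16 tested genes were lower and none higher, with a median of -0.69. Kit, a receptor tyrosine kinase of luminal progenitors, had 3.16 and 3.22 CPM in class 2 against 82.9 and 60.9. Lcn2, a secreted lipocalin, had 4.51 and 0.403 CPM against 93.4 and 49.9. Pooled over both libraries these were 21.7-fold (95% counting interval 15.2 to 32.3) and 28.5-fold (18.8 to 45.7) lower. The Lcn2 fold differed between libraries beyond that interval, at 20.7 in adult replicate 1 alone and 124 in adult replicate 2 alone. Csn3, Lalba, Wfdc18 and Tspan8 were also lower, and Elf5, a driver of milk secretion, was not called at -0.60 and -0.42. With 5 CPM added Lalba and Tspan8 were not called, and Tspan8 was not with equal class weights or among the deeper nuclei. In 15 of the 16 genes both libraries were below 0, as in 6173 of all 18082 genes.

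In the basal list 9 of 16 genes were lower, Krt5, Krt14, Krt17, Trp63, Acta2, Myh11, Cnn1, Lgr5 and Vim, with a median of -1.37. Cnn1 was not called with 5 CPM added, among the deeper nuclei or with the span alone, and Lgr5 was not among the deeper nuclei. Krt5, a keratin of basal cells, had 0.903 and 0.806 CPM against 14.3 and 20.2, and Trp63, their master regulator, 24.4 and 29.4 against 91.2 and 102. Itga6, an integrin often used to sort basal cells, was the 1 gene of the list above 0 in both libraries, at 0.36 and 0.38. The summed level of the list was 479 and 460 CPM in class 2, beside 542 and 519 in class 7 and 1784 and 1772 in class 1.

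Stromal, endothelial and immune lists had 2 of 9, 0 of 7 and 0 of 8 tested genes lower and none higher. Col1a2 and Twist1 were the lower stromal genes. Neither was called with 5 CPM added or among the deeper nuclei, and Col1a2 was not with the span alone. Pdgfrb and the endothelial gene Emcn were lower with equal class weights, without class 11 and among the deeper nuclei. Col3a1, Dcn and Fbn1 were lower with equal class weights, and the immune gene Ikzf1 without class 11. The stromal sum was 184 and 192 CPM in class 2 and 1136 and 1126 in class 6, the class with the highest stromal level. In the fetal mammary list 3 of 8 genes were lower, Sox10, Hmga2 and Nfix, with a median of -0.59. Sox10, a factor of neural crest and mammary stem cells, stood at -2.50 and -2.55. In the luminal keratin and epithelial list no gene of 15 was called, with a median of 0.40. All 15 were above 0 in both libraries, as were 7486 of all 18082 genes. Krt7 had 1.39 and 0.91 and Spdef, an epithelial ETS factor, 0.93 and 0.99. Both passed with class 11 left out of the comparison nuclei, and Spdef also with equal class weights.

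**Figure D4:**
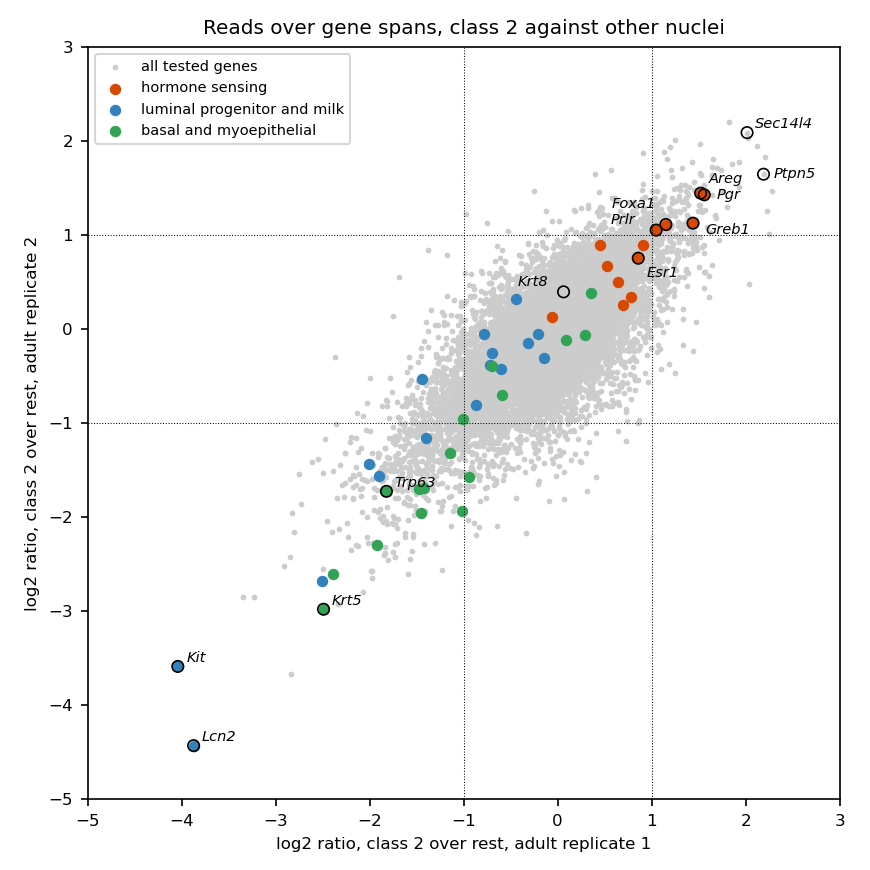
Log2 ratios of gene-span CPM, class 2 over all other nuclei, in adult replicate 1 (x) and adult replicate 2 (y) for 18082 genes in grey, with 3 gene lists coloured, named genes circled and the limits of -1 and 1 dotted. Areg, Pgr, Foxa1, Prlr and Greb1 pass the upper limits, Esr1 and Krt8 do not, and Kit and Lcn2 lie farthest below.

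Outside the lists, the 15 highest spans were not hormone receptors. Sec14l4, a lipid-binding SEC14-like gene, had 66.1 and 69.7 CPM in class 2 and 14.9 in the other nuclei of each library, a mean log2 ratio of 2.05. R3hdml had 58.9 and 54.2 CPM against 12.01 and 12.6, a mean of 2.03. Ptpn5, a protein tyrosine phosphatase studied mainly in neurons, had 188 and 166 CPM against 39.5 and 51.5, and Sgsm1 had 130 and 181 against 35.2 and 37.7.

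Cyp3a57, a cytochrome P450, had a mean ratio of 2.02, Gdap1l1 1.87, Nrg4, an ErbB4 ligand, 1.74, S100b, a calcium-binding protein, 1.73, Abcc8, the sulphonylurea receptor, 1.72, Rhox5, an X-linked homeobox gene, 1.72, Fam25c 1.70 and Gm31160 1.68. Prlh, at 2.02, overlaps the span of Mlph, Krt87, at 1.85, that of Krt7, and Apon, at 1.81, that of Timeless. ATAC reads carry no strand, so reads of overlapping spans cannot be told apart; Sgsm1, Nrg4, S100b, Abcc8 and Gm31160 also overlap another gene.

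After Lcn2 and Kit, the lowest spans were Cmklr1, the chemerin receptor, with 4.97 and 1.61 CPM in class 2 against 47.6 and 43.9, and Il17b, a cytokine, with 0.451 and 1.41 against 22.9 and 22.5. Thbs1, an adhesive matrix protein, had 14.2 and 21.2 CPM against 150.2 and 164, a pooled fold of 8.88 (7.61 to 10.4). Krt5, at 21.0-fold lower (10.6 to 48.9), Ccn2, a matricellular protein, at 9.46-fold (6.72 to 13.8), and Fam181b at 11.7-fold (7.25 to 20.3) completed the 8. The intervals treat each read as independent and leave out the spread between libraries. Both ends of a fragment are listed as reads, so they can be too narrow even for counting error. The same holds for the folds of regions below.

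Distal regions, the authors' list of 1000-base regions away from promoters, carried most of the class differences. Of 84437 tested, 7721 were higher in class 2 (9.14%) and 15456 lower (18.3%); of 16694 promoter regions 307 were higher (1.84%) and 1247 lower (7.47%). Region levels are CPM of the reads in that set of regions. Higher distal regions lay at a median of 22.5 kb from the nearest RefSeq start site, lower ones at 26.0 kb and all tested at 20.9 kb. They fell within a coding gene span in 54.8%, 52.3% and 55.6%, so neither distance nor gene overlap set the higher regions far from the rest.

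The highest regions, 7 of which are described, are named by the nearest start site, which need not be the gene they act on. The first, chr2:138901275-138902274 (mm10), lies 236 kb from Gm14061 and had 56 and 91 class 2 reads against 4 and 30 in all other nuclei, a mean log2 ratio of 2.99. The next, chr5:115126063-115127062, inside Unc119b and 7.2 kb from Acads, had 139 and 135 reads against 25 and 49, a ratio of 2.87. A region within Mast4, 47.5 kb from Gm30050, had a ratio of 2.86. In these 3 the class 2 level was at least 25.8 CPM in both libraries, beside at most 8.69 in the other nuclei.

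The other 4 lay near Naxd within Cars2 (2.85), within Ces3b (2.79), near Gm34828 (2.77) and within Get4 (2.76). The Ces3b region, chr8:105085822-105086821, had 44 and 38 class 2 reads against 0 and 18, so its ratios of 3.64 and 1.93 differed most. These 7 regions had class 1 and class 8 levels of 0 CPM. Their class 11 levels ranged from 0 to 34.5 CPM.

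The 4 lowest regions were nearly free of class 2 reads. The region chr2:173419464-173420463 near Gm52539 had 0 and 0 class 2 reads against 264 and 382. That is 91.8-fold lower when 3 reads over both libraries are set as the floor, with a lower limit of 74.4. That near Rassf2, chr2:132006168-132007167, had 0 and 0 against 209 and 275, or 68.8-fold lower with the same floor and a lower limit of 55.7. The region 116 kb from Nfia, chr4:97465499-97466498, had 2 and 2 against 443 and 517, or 102-fold (39.8 to 376), and that near Gm20083, chr7:73196540-73197539, 0 and 2 against 254 and 358, a fold of 130.5 (36.0 to 1080) that was 67.7 in adult replicate 2 alone. Class 11 had 0 to 5.46 CPM in these regions and class 10 27.6 to 85.1 CPM. Nfia encodes a nuclear factor I protein, and the motif column it shares with Nfib was among the lowest. Whether the region near Nfia acts on that gene or bears on that score was not tested.

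**Figure D5:**
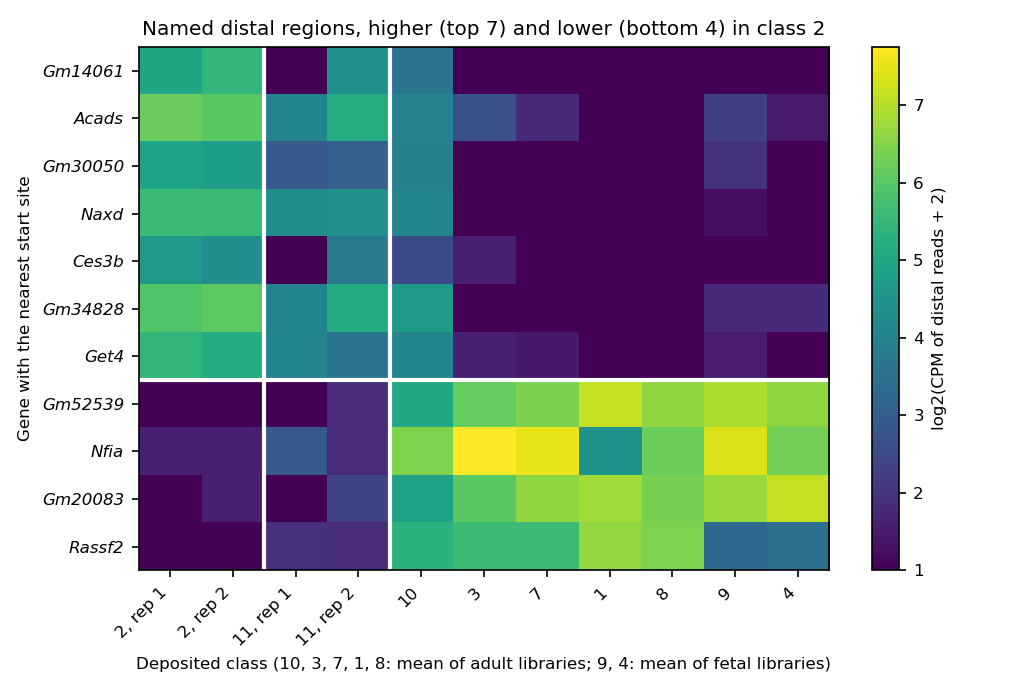
Levels of 7 of the highest and the 4 lowest named distal regions, as log2 of CPM of distal reads with 2 added, in class 2 and class 11 by adult replicate and in 7 other classes as library means. The upper 7 rows are bright in class 2, weaker in classes 11 and 10 and near the floor in the others, and the lower 4 rows are near the floor in classes 2 and 11, with 27.6 to 85.1 CPM in class 10.

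Promoter regions are also named by the nearest start site, or by the gene span on chromosome 18. Higher ones lay at a median of 1.655 kb from the nearest start, lower ones at 1.038 kb and all tested at 0.329 kb. The 6 higher ones named here lay 771 to 1975 bases from it. They included the region nearest to Prlh, with 44 and 67 class 2 reads against 9 and 30 and a mean log2 ratio of 2.55. Rnf224, at 2.47, Gstp3, a glutathione transferase, at 2.40, Angptl6, at 2.39, Spaca4, at 2.38, and Unc5b, a netrin receptor, at 2.34 were the others named by the rule. The Lcn2 promoter region, chr2:32387383-32388382, had 4 and 0 class 2 reads against 337 and 348, a 73.8-fold difference (28.7 to 272) that was 43.3-fold in adult replicate 1 alone. Promoter regions in Hars and Il17b had 0 and 0 class 2 reads against 107 and 149 and against 89 and 128. With the same floor of 3 reads these were 36.8-fold and 31.2-fold lower, with lower limits of 29.7 and 25.1.

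Over all tested distal regions 9.14% were higher and 18.3% lower, and counts at single genes are read beside these shares. Of 19 tested distal regions within 200 kb of Pgr as their nearest start site, 10 were higher and 1 lower, with a median log2 ratio of 1.39 beside -0.10 over all distal regions. Foxa1 had 4 of 6 higher, Jun, an AP-1 subunit, 4 of 5, Krt7 4 of 13, Areg 3 of 9 and Esr1 5 of 20 with 2 lower. Jun was not typical of AP-1 and related genes. Fos, Fosb, Junb, Atf3, Maff, Fosl2 and Bach1 had no higher region, and Batf had 1 of 9. Bach1 had 6 of 9 lower. Prlh and Gm42427 were picked from the genes with the most higher regions, and all 7 regions nearest to each were higher. Other genes picked that way had lower shares, such as Gm40948 with 11 of 33 higher and 4 lower, and Nek7 with 9 of 43 higher and 5 lower. Krt8 had none of 9 called. Against these, Kit had none higher and 12 of 17 lower, Nfix 11 of 16 lower and Bach2 13 of 23 lower.

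For Esr1, Foxa1 and Areg the region with the highest mean log2 ratio is given, picked for that value. The lowest regions of these genes had ratios of -2.02, 0.53 and -1.09. At Esr1, the region chr10:4624651-4625650 inside the Esr1 span, 13.2 kb from the nearest start, had 56.9 and 50.2 CPM in class 2 and 10.1 and 16.0 in other nuclei. At Foxa1, chr12:57535052-57536051, 10.6 kb from the start, had 29.8 and 41.3 CPM against 7.01 and 10.6. At Areg, chr5:91149461-91150460, 10.4 kb from the start, had 41.3 and 23.5 CPM against 7.53 and 8.33. Class 11 had 41.8 and 55.3 CPM at the Esr1 region, 36.4 and 32.1 at the Foxa1 region, and 41.8 and 32.9 at the Areg region, where both libraries exceeded class 2. Within the Esr1 span, which missed the fold as a whole, single regions had ratios from -1.02 to 1.91. The region at -2.02 lay outside that span.

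Co-accessibility scores in the authors' deposited table, made with Cicero over all nuclei, link regions that open in the same cells. Taking pairs with a score of at least 0.25, 9.53% of the higher distal regions were linked to a promoter region and 59.5% to another distal region. These shares were 7.17% and 40.8% for the lower regions and 2.04% and 13.2% for regions called neither way. Tested distal partners of higher regions were higher in 64.04%, and promoters they were linked to were higher in 45.9% of 949 links; none was lower. For distal regions called neither way, 34.6% of tested distal partners and 12.99% of linked promoters were higher. Partners of lower regions were lower in 75.2%. These scores come from the same nuclei, so the shares are no independent support. In the authors' deposited table the promoter region at the Pgr start was linked, at a score of 0.354, to the higher distal region chr9:8558163-8559162, 342 kb away; that promoter region was itself not called, with a mean log2 ratio of 0.89. The same distal region had stronger links in the authors' deposited table, at 0.594, 0.588 and 0.522, to 3 regions of the promoter list that have Pgr as their nearest start site but do not lie at it, all called higher.

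Over distal regions class 11 was more like class 2 than the other adult classes compared. Over the 84437 distal regions, Pearson's r between class 2 of the 2 adult libraries was 0.876, and r between class 2 and class 11 of the same library was 0.719 and 0.811. With class 10 it was 0.539 and 0.509, with class 7 0.331 and 0.294, and with class 1 0.109 and 0.087. Over the 16694 promoter regions r was 0.830 and 0.891 with class 11 and 0.832 and 0.815 with class 7, so class 11 was not the closest there in adult replicate 1. These are descriptions across regions, and small classes have noisier levels. In the 7721 higher regions class 2 stood above each of the adult classes 1, 3, 6, 7, 8, 10 and 11 in 5554 (71.9%) and above these without classes 10 and 11 in 7385 (95.6%), beside 13.1% and 27.2% of all tested distal regions. Class 11 had at least 1 read for every 2 of class 2, in CPM, in 86.1% of them, class 10 in 55.5%, class 7 in 2.58% and class 1 in 2.67%. Over all tested distal regions these shares were 94.975%, 81.6%, 74.3% and 64.5%. Comparing each class in this way uses the regions that the contrast chose, and is a description.

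Set directly against class 11 of the same library, class 2 had few called gene spans, 23 higher (0.127%) and 119 lower (0.658%). The hormone-sensing list had none of 13 called and a median of 0.24 beside 0.08 over all genes; Pgr stood at 0.27, Foxa1 at 0.24, Areg at 0.11 and Esr1 at 0.09 on average. The widest difference in the list was that of Tnfsf11, which was lower than in class 11, with 47.2 and 29.2 CPM in class 11 and log2 ratios of -1.79 and -0.83. Krt87 was higher than in class 11, at log2 ratios of 1.28 and 1.05. Kit was lower even than in class 11, at -1.20 and -1.30. Of the distal regions 1503 were higher than in class 11 (1.78%) and 2035 lower (2.41%), so 42.5% of the called ones were higher. Scaled to all reads of the nuclei instead, 536 were higher and 335 lower, or 61.5%, so the direction of the balance depended on the scaling. Of the promoter regions 124 were higher (0.743%) and 675 lower (4.04%), or 15.5% higher among those called, and scaled to all reads 91 and 59, or 60.7%. Class 11 nuclei had a lower promoter share, 21.2% and 18.1% against 25.7% and 23.2%, and a greater depth; the part of these in the differences was not tested. Doublets were not called, and the part of mixed barcodes in classes 10 and 14, which were deep at medians of 8341 and 10406 reads in class 10 and 8412 in class 14, was not tested.

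The 3 fetal nuclei of class 2 had Foxa1 scores of 3.00, 2.94 and 3.46 and Fos scores of 1.83, 4.14 and 4.52, at 3490, 7738 and 8177 reads. Thinned to 2000 reads, they held 1 read over Areg, 1 over Pgr and none over Foxa1 or Esr1. With so few nuclei nothing further was taken from them.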

How the data were processed

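Reads of single-nucleus ATAC-seq were analysed in 2 adult and 2 fetal libraries. Per the submitters' processing notes, Bowtie2, MACS2 and bedtools were used with mm10; their versions, duplicate removal, cut-site shifts and the clustering method are not given in the sources used here. The deposited files list read positions with barcodes, barcodes kept by the authors as nuclei, promoter and distal regions of 1000 bases, a deviation score for each of 427 motif columns (388 distinct) with class and read count per nucleus, and Cicero co-accessibility scores. The deposited read count equalled the reads found for all 7846 nuclei.

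Reads of listed nuclei were counted where they overlapped a region or gene span by at least 1 base, without a shift, and summed by class and library. Ratios are log2((class 2 + 2)/(rest + 2)) of CPM within each adult library, for features that averaged 20 or more reads over the adult libraries; CPM of regions are scaled to the reads in that region set. A feature was called at 2-fold in both libraries, a motif at a score difference of 1. No p-value was computed, because the authors made the classes from these nuclei. Named features followed a fixed rule: the 8 highest and 4 lowest distal regions (at least 50 reads), the 6 and 3 promoter regions, the 15 and 8 gene spans (at least 100 reads), the 6 and 6 motifs, and list members; 1 of these distal regions is not reported here. The members of the class, the gene lists and the rules were chosen with earlier results of these data known. Regions were given their nearest gene from RefSeq start sites of GRCm38.p6, except on chromosome 18, where the gene span is named. The deposited gene accessibility score was not used, since its columns name no sample, and motif letters of distal regions were not analysed here. Alternatives covered the added 2 CPM, read minimum, fold, scaling, comparison nuclei, depth and each replicate. Nuclei came from 32 tagmentation wells for each adult replicate and 20 were sorted to each of 768 wells, so a barcode pair can be shared; no doublet caller was run. Counting and calls were tested on simulated data. Software was Python 3.11.15 with scipy 1.17.1, pandas 2.3.3 and numpy 2.4.6; plots were drawn in matplotlib 3.10.9.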

Additional observations from a re-analysis of the deposited data

How the results depend on the processing

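Among the genes, regions and motifs ranked highest or lowest by the rule, no value changed sign under the alternatives run. The same held for the spans of Areg, Foxa1, Esr1, Pgr, Krt8, Prlr and Greb1. It also held for the Fos, Esr1, Elf5, Trp63 and Ctcf motifs. Signs of all other features, including the other list genes and single regions named above, were not checked. Tnfsf11, for example, differed in sign between the adult libraries. The balance of higher and lower distal and promoter regions against class 11 turned with the scaling. Of 100 alternative values for the counts and shares, 57 stayed within 1.5 times of the main value, or within the spread between libraries, and 43 moved, with the cause not tested unless the setting itself fixes it. For gene spans, 166 higher and 507 lower became 98 and 327 with 5 CPM added, 2 and 24 at a fold of 4, 360 higher with class 11 left out of the comparison nuclei, and 109 higher among the deeper nuclei. For distal regions, 7721 and 15456 became 4159 and 7697 with 5 CPM added, 4571 and 6574 with a minimum of 50 reads, 338 and 3657 at a fold of 4, 12743 higher without class 11, and 5075 and 7512 scaled to all reads, a scaling that lowers CPM so that the 2 added weigh more. For promoter regions, 307 and 1247 became 196 and 713 with a minimum of 50 reads, 16 and 338 at a fold of 4, 558 higher without class 11, and 176 and 508 scaled to all reads. Against class 11, 1503 and 2035 distal regions became 3784 and 4426 with 0.5 CPM added and 536 and 335 scaled to all reads. Motif columns went from 26 and 10 to 7 and 0 at a difference of 2.

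Leaving out 1 adult replicate requires the fold in a single library, so counts rose by construction: to 305 to 348 higher and 841 to 897 lower gene spans, 12565 to 13431 and 19115 to 24622 distal regions, 644 to 695 and 1915 to 2299 promoter regions, and, against class 11, 7160 to 12425 and 10700 to 10990 distal regions. The same 5 hormone-sensing genes passed without either replicate, which a call in both libraries fixes in advance. At a fold of 4 none of them passed, and among the deeper nuclei only Pgr, Prlr and Areg did. Of 66 list counts 4 moved, but these covered only the hormone-sensing, luminal progenitor and milk, and basal lists. Calls in other lists also changed with the setting and are not in that number. Of 531 values of the features whose signs were checked, 186 moved by more than the spread between libraries. Each ratio was formed within 1 library, which pairs its sides by design. No paired test was run, because no p-value was computed for classes made from these same nuclei. With 2 adult libraries the spread is poorly known, and depth limits regions with few reads, where 0 class 2 reads give only a lower bound on a fold.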
